A study of Mus musculus with 69 samples.

Results

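The comparison set FVB mouse skin 12 h after topical TPA against FVB skin 6 h after it. TPA, an activator of protein kinase C, is a phorbol ester that inflames and thickens mouse skin when painted on it. The members are the arrays that the labels title as FVB at 6 h and FVB at 12 h, 3 of each, so 6 of the 69 arrays of the series. Both groups share strain, tissue and treatment: dorsal skin of FVB mice aged 8 weeks, shaved and then given TPA in acetone, and they differ in the hours to sampling. The protocol in the labels speaks of a single dose and does not list 12 h among its times, while the design text speaks of replicate exposure, and no vehicle arrays are among the samples. FVB arrays at 0 h (n = 3), 2 h (n = 3) and 24 h (n = 3) and arrays of F1, the cross of FVB with Spret/Ei, at 6 h (n = 2) and 12 h (n = 2) serve as background. All FVB arrays carry the same batch label, and the F1 arrays lie in the other batches. Nothing in the labels gives each array a mouse of its own, so p-values rest on a spread between arrays that may partly be technical.

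A cell that leaves quiescence passes G1, where cyclin D and cyclin E kinases release E2F transcription factors from the retinoblastoma family. E2F then switches on the genes that license replication origins, load the MCM helicase, build the replication fork and make deoxynucleotides, and the genes of mitosis follow later. In TPA-treated skin an early wave of growth factors, chemokines and cytokines comes before the dividing and thickened epidermis, whose keratinocytes make stress keratins and small proline-rich proteins. Whole skin was measured here, so fewer cells of a type and less RNA per cell cannot be told apart.

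The arrays were alike in distribution, with interquartile ranges of 3.40 to 3.78 on the log2 scale over the 27 FVB arrays. Keratinocyte markers fitted the tissue label: Krt14, a basal keratin, read log2 11.74, 11.72 and 10.90 at 6 h and 12.25, 12.31 and 11.93 at 12 h. Transcripts of other tissues were uneven among the 6 arrays. A list score takes each member's log2 value minus that gene's mean over the FVB arrays and averages it over the list. It was 2.19 for 21 T lymphocyte markers in replicate 3 at 6 h and lay between -0.30 and 0.03 in the other 5 arrays. For 12 pancreas transcripts that same array scored 3.22 and replicate 2 at 6 h 1.01, against -0.63 to -0.48 elsewhere. For 21 liver transcripts replicate 1 at 12 h scored 2.82, the 6 h arrays 0.25 to 1.45, and the other 12 h arrays -1.57 and -1.96. For 17 skeletal muscle genes the 6 h arrays scored 1.09 to 1.47, and replicate 3 at 12 h scored -2.42 beside 0.26 and -0.18. The part of these transcripts in the changes described here was not tested. The leading counts are also given without single arrays, and without replicate 3 at 6 h and replicate 1 at 12 h together. No setting left out all the arrays concerned at once. For muscle every 6 h array scored above every 12 h array, so leaving out arrays does not remove that difference.

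**Figure D1:**
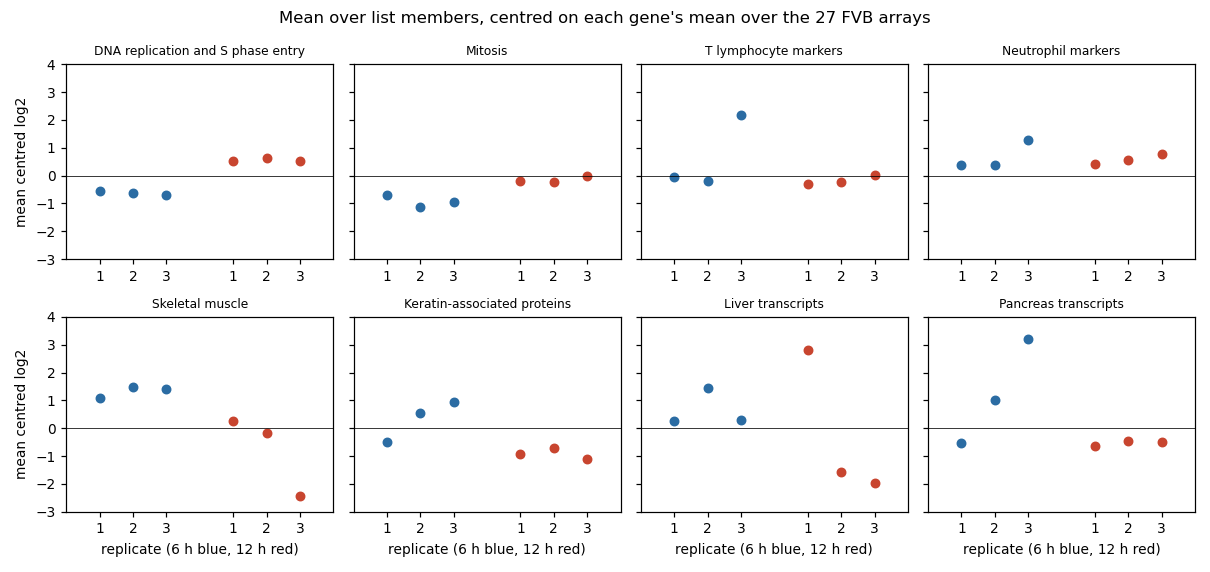
Scores of 8 gene lists in each of the 6 arrays, the vertical axis being the average over the list of each member's log2 value minus its mean over 27 FVB arrays and the horizontal axis the replicate, with 6 h in blue and 12 h in red. Replication scores lie between -0.68 and -0.56 at 6 h and between 0.52 and 0.64 at 12 h, while T lymphocyte, pancreas, liver and muscle scores each have 1 or 2 arrays far from the rest. The list of keratin-associated proteins was drawn up after the values were seen.

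Of 18820 genes, 204 were higher at 12 h (1.08%) and 135 were lower (0.717%), 1.80% in all, at an adjusted p under 0.05 in limma and a log2 change of at least 1. The median change over all genes was 0.01. Without a fold threshold 497 genes were higher and 382 lower. The count of lower genes rested more on single arrays: it was 89 without replicate 1 at 12 h and 76 without replicate 3 at 12 h, while the count of higher genes stayed between 185 and 227 with any of the 6 arrays left out. Of the 204 higher genes 114 kept the call with each array left out in turn, and of the 135 lower genes 47 did.

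Genes of DNA replication and S phase entry were the list with the most calls. Of 51 listed genes 46 were measured, 32 of them rose and none fell, where 1.08% of all genes rose. The median change of the list was 1.23, against 0.01 over all genes. Every one of the 46 had a change above 0, and in 43 the 3 arrays at 12 h all lay above the 3 at 6 h, a separation seen in 12.0% of all genes. Leaving out any one array gave 30 to 33 members higher, and leaving out replicate 3 at 6 h together with replicate 1 at 12 h gave 28. Of the 32, 27 kept the call in each of the 6 leave-one-out fits.

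**Figure D2:**
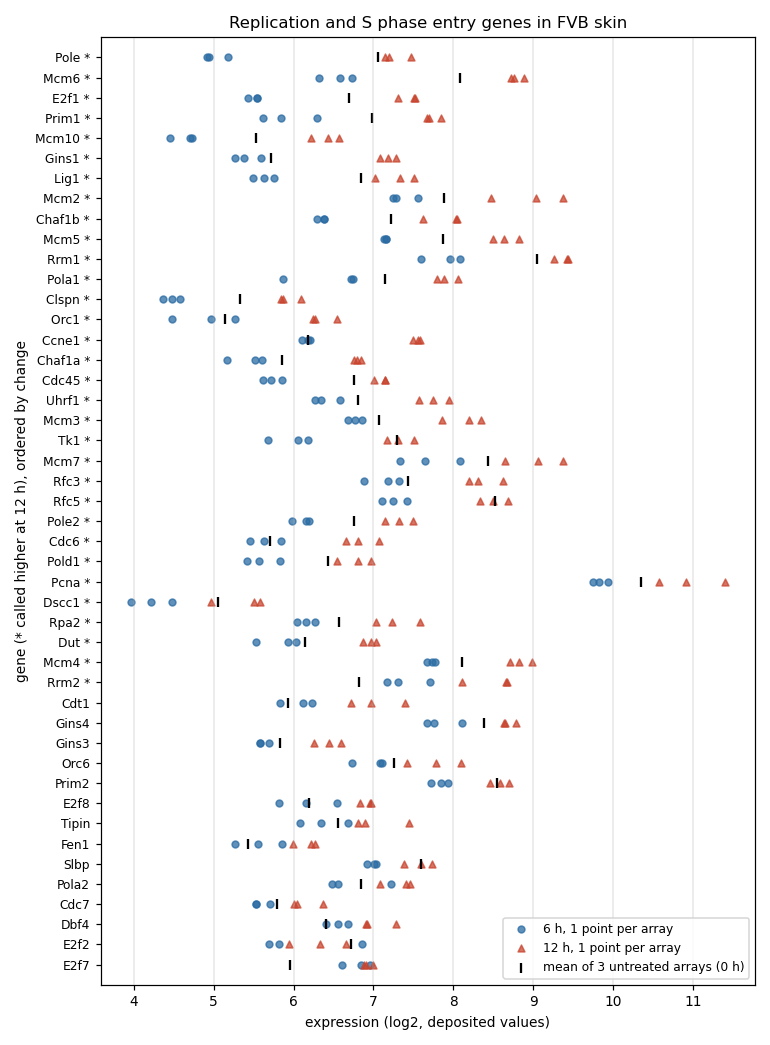
Log2 expression (horizontal axis) of the 46 measured replication and S phase entry genes (vertical axis, ordered by change, a star marking the 32 called higher) in 3 arrays at 6 h (blue circles) and 3 at 12 h (red triangles), with the mean of 3 untreated arrays as a black tick. In 43 genes the triangles lie wholly to the right of the circles, and for many genes the untreated tick lies between the groups.

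Mcm2 to Mcm7 form the ring that unwinds DNA at the fork, and all 6 rose, by log2 1.12 to 2.25. Mcm6 read 6.58, 6.73 and 6.32 at 6 h and 8.77, 8.88 and 8.73 at 12 h, so the groups stood far apart. That was a 4.74-fold difference (log2 change 2.25 ± 0.27 (SE), adjusted p = 2.45e-05). Mcm5 read 7.13, 7.15 and 7.16 at 6 h and 8.63, 8.82 and 8.49 at 12 h, a log2 change of 1.50 ± 0.21 (adjusted p = 0.000123). The least changed of the ring was Mcm4, with 7.73, 7.67 and 7.77 against 8.82, 8.99 and 8.71 and a change of 1.12 ± 0.21 (adjusted p = 0.00202). Mcm2 varied most at 12 h, reading 9.03, 9.37 and 8.48 there and 7.28, 7.25 and 7.56 at 6 h.

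Of 11 factors that load and fire the helicase 5 rose. Orc1, a subunit of the origin recognition complex, rose from 4.97, 5.27 and 4.48 to 6.28, 6.55 and 6.24 (change 1.44 ± 0.25, adjusted p = 0.00120). Cdc6, which loads the helicase with Cdt1, rose by 1.20 ± 0.22 (adjusted p = 0.00199). Cdt1 and Orc6 passed the adjusted p but not the fold threshold, with changes of 0.97 and 0.80. Among activators of the loaded helicase, Mcm10 (1.78), Gins1 (1.77) and Cdc45 (1.37) rose. Gins3 and Gins4 passed the adjusted p alone, at 0.82 and 0.84. The kinase Cdc7 and its regulatory subunit Dbf4 had changes of 0.55 and 0.49 that did not pass (adjusted p = 0.0776 and 0.187).

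At the fork itself, Pole, the catalytic subunit of the leading strand polymerase, had the largest change of the list. It read 5.18, 4.95 and 4.92 at 6 h and 7.19, 7.46 and 7.15 at 12 h, a 4.76-fold difference (log2 change 2.25 ± 0.22, adjusted p = 2.84e-06). Of 7 polymerase and primase subunits 5 rose, among them Prim1 (1.82) and Pola1 (1.47), while Prim2 passed the adjusted p alone at 0.75 and Pola2 did not pass, at 0.56. Lig1, the ligase that joins Okazaki fragments, rose by 1.66 ± 0.22 (adjusted p = 9.73e-05). Pcna, the sliding clamp, read 9.93, 9.82 and 9.75 at 6 h and 10.57, 10.92 and 11.40 at 12 h, with a change of 1.13 ± 0.20 (adjusted p = 0.00129). Replicate 3 was its highest array at 12 h, and without it the change was 0.91, under the fold threshold, with an adjusted p of 0.0142. The flap nuclease Fen1 did not pass, at 0.60 (adjusted p = 0.200).

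All 4 genes of nucleotide supply rose. Rrm1, the large subunit of ribonucleotide reductase, read 7.96, 7.60 and 8.09 at 6 h and 9.43, 9.42 and 9.26 at 12 h (change 1.49 ± 0.23, adjusted p = 0.000362). Tk1, thymidine kinase, rose by 1.36 ± 0.20 (adjusted p = 0.000174). Rrm2, the small subunit, rose by 1.08 ± 0.31 with an adjusted p of 0.0433, and that call was lost without replicate 2 or 3 at 6 h or replicate 1 or 2 at 12 h, with adjusted p from 0.107 to 0.146. Dut, which clears dUTP, rose by 1.12, and without replicate 2 at 6 h its change was 0.98. Chaf1b and Chaf1a, which deposit histones on new DNA, rose by 1.54 and 1.37, and Uhrf1, which carries DNA methylation to the daughter strand, by 1.36. Clspn, a fork protection protein, read 4.58, 4.48 and 4.37 against 6.10, 5.84 and 5.87 and rose by 1.46 ± 0.22 (adjusted p = 0.000295).

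Of 5 regulators at the G1 to S boundary 2 rose. E2f1, an activating E2F, read 5.54, 5.42 and 5.55 at 6 h and 7.30, 7.50 and 7.52 at 12 h, a 3.83-fold rise (change 1.94 ± 0.24, adjusted p = 2.97e-05). Ccne1, cyclin E1, was tight in both groups at 6.20, 6.11 and 6.18 against 7.56, 7.58 and 7.50 (change 1.38 ± 0.19, adjusted p = 9.73e-05). E2f2, another activating E2F, and E2f7, an atypical repressive one, had overlapping groups, with changes of 0.19 ± 0.31 and 0.12 ± 0.19. E2f8, the other atypical E2F, had 0.75 ± 0.24 (adjusted p = 0.0718). In a wider list of 24 G1 cyclins, kinases and inhibitors 1 gene rose, where 1.08% of all genes rose, and the list's median change was 0.08. That gene was Rbl1, which encodes the pocket protein p107 (1.23 ± 0.21, adjusted p = 0.00113). Ccnd1, cyclin D1, passed the adjusted p but not the fold threshold, at 0.99 (9.56, 9.29 and 8.64 against 10.31, 10.50 and 9.65). Myc, with 10.19, 10.20 and 10.04 against 9.85, 10.01 and 9.84, changed by -0.24 ± 0.16 and did not pass (adjusted p = 0.450).

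For the replication list, promoter windows were read from RefSeq (GRCm38.p6), 250 bases before to 50 after each annotated start, and searched on both strands for 4 spellings of the E2F element, TTTGGCGC, TTTCCCGC, TTTCGCGC and TTTGCCGC. Spellings can overlap one another. Of the 46 measured members 39 had a window, and 17 of these (43.6%) held at least 1 match, against 524 of 14749 genes (3.55%) with a window in all. Members called higher held a match in 13 of 28 genes and members not called in 4 of 11. Over all 204 higher genes it was 30 of 165 with a window (18.2%), and over the 135 lower genes 4 of 101 (3.96%). Mitosis genes held a match in 1 of 22, Cdk1. A match is a run of letters, not a measured site, and its absence says nothing of binding. Each window follows an annotated start, and whether that start is the one used in skin was not checked. No match was found in the 1 window of E2f1, and bases of that gene outside the window were not searched. Among windows of members called higher, the 5 with at least 2 matches are printed as examples. Of these 4 are from the helicase ring and 1, Rfc3, is from the clamp loader. Windows of members not called were not sorted by number of matches, so the choice says nothing of a tie between matches and rising. Capitals mark the matches, in the strand of the gene, and adjoining capitals are overlapping matches on both strands. The windows are chr1:128359656-128359955 on the minus strand for Mcm6, chr8:75109259-75109558 on the plus strand for Mcm5, chr1:20820263-20820562 on the minus strand for Mcm3, chr5:138171834-138172133 on the minus strand for the first of 2 windows of Mcm7, and chr5:151651159-151651458 on the minus strand for Rfc3.
Mcm6: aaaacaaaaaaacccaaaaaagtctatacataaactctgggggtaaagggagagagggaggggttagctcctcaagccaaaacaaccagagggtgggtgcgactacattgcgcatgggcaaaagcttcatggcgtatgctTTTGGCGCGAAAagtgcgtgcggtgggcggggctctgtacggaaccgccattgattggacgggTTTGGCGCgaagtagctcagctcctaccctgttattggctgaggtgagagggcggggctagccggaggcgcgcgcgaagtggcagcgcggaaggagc
Mcm5: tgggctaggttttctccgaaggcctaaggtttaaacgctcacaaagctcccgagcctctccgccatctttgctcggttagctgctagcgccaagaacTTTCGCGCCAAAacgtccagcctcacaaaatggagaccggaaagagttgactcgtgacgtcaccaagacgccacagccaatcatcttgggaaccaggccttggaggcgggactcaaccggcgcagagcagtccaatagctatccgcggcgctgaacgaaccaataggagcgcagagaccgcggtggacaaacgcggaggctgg
Mcm3: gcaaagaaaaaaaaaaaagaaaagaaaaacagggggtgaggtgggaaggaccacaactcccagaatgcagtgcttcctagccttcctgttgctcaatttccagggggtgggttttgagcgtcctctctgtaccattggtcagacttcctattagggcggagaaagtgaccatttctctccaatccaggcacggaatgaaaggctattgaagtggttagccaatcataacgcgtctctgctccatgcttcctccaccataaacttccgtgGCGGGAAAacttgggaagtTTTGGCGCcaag
Mcm7: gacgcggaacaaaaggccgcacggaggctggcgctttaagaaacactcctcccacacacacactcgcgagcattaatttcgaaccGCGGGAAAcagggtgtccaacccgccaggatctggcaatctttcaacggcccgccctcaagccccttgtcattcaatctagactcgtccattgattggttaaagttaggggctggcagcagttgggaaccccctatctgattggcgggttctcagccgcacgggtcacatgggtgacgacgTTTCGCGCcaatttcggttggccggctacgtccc
Rfc3: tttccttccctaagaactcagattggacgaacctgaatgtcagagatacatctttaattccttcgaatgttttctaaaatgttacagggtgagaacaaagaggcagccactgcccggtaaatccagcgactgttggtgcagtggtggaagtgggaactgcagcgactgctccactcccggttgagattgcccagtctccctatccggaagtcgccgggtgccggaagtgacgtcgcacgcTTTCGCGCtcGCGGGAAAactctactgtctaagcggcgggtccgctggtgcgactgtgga
In Mcm6 and Mcm5 an overlapping pair of matches begins 110 and 153 bases before the annotated start, and in Rfc3 the first of the matches begins 10 bases before it. The changes of these genes were 2.25, 1.50, 1.36 (Mcm3), 1.34 (Mcm7) and 1.25 (Rfc3).

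Further genes that guard and package the fork rose as well. The lists used for them were drawn up after the values were seen and serve as a description. Over all genes 1.08% rose and 0.717% fell. Of 24 measured genes of fork repair and checkpoint 13 rose and none fell, with a median of 1.02. Dtl, the substrate receptor that removes Cdt1 at the fork, read 5.62, 5.55 and 5.47 against 7.48, 7.82 and 7.83 and rose 4.48-fold (change 2.16 ± 0.24, adjusted p = 1.01e-05). Chek1 (1.70), a checkpoint kinase, and Brca1 (1.49), a repair protein, rose too, while the sensor kinase Atr changed by 0.12 and did not pass. Of 19 measured genes of chromatin assembly and cohesion 12 rose and none fell, with a median of 1.20. Among them were the histone chaperone Asf1b (2.10 ± 0.27, adjusted p = 5.29e-05), the chromatin remodeller Hells (1.96 ± 0.23, adjusted p = 1.63e-05) and Mybl2 (1.58), a transcription factor of dividing cells.

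Of 30 listed mitosis genes 26 were measured, 7 rose and none fell, where 1.08% of all genes rose. The median change of the list was 0.76. Ccna2, cyclin A2, which acts in S phase and at entry to mitosis, read 7.10, 6.50 and 7.04 at 6 h and 8.38, 8.13 and 8.59 at 12 h (change 1.49 ± 0.23, adjusted p = 0.000363). Cdk1, the mitotic kinase, rose by 1.20 ± 0.21 (adjusted p = 0.00123), and the kinetochore genes Nuf2 and Bub1 rose by 1.28 and 1.22. Aurkb, the Aurora B kinase, rose by 1.01, and without replicate 2 at 6 h or replicate 1 at 12 h its change was 0.88 or 0.97. The cytokinesis genes Kif23 and Anln rose by 1.13 and 1.12, and without replicate 3 at 6 h their changes were 0.91 and 0.68 (adjusted p = 0.0357 and 0.138). Anln also lost the call without replicate 3 at 12 h (adjusted p = 0.0902). Plk1, another kinase of mitosis, had a change of 0.33 (adjusted p = 0.346) and Ccnb2, cyclin B2, of 0.54 (adjusted p = 0.216).

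In untreated skin many of these genes read higher than at 6 h. These comparisons share the 6 h or 12 h arrays with the one described, and their values are set side by side only. Over the 46 replication genes the median change was -0.52 from 0 h to 6 h and 0.69 from 0 h to 12 h, and it was -0.13 from 12 h to 24 h. Over the 26 mitosis genes the median change from 12 h to 24 h was 1.52. Pole stood at 7.06 ± 0.20 (SD, n = 3) in untreated skin and changed by -2.04 from there to 6 h, and its 12 h mean was 0.21 above untreated skin (adjusted p = 0.546). Ccne1 followed another course: it changed by -0.02 from 0 h to 6 h and was 1.36 above untreated skin at 12 h. Gins1 was 1.47 and Mcm3 1.06 above untreated skin at 12 h. Ccna2 at 12 h was still 0.43 under its untreated mean of 8.80 ± 0.10 (SD, n = 3), a difference that did not pass (adjusted p = 0.184), and it was 1.67 higher again at 24 h.

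**Figure D3:**
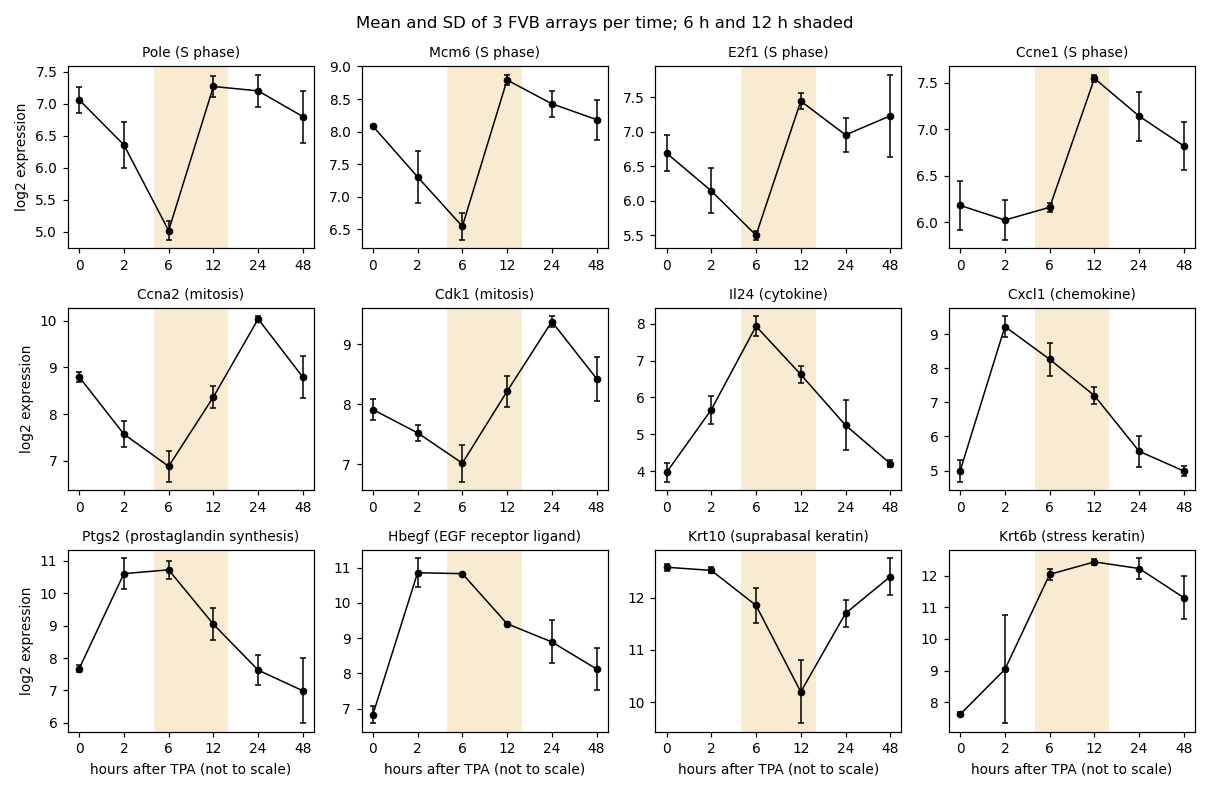
Mean log2 expression (vertical axis) and SD over 3 FVB arrays at 0, 2, 6, 12, 24 and 48 h after TPA (horizontal axis, not to scale) for 12 genes, with 6 h and 12 h shaded. Pole and Mcm6 are lowest at 6 h and Ccne1 first stands above untreated skin at 12 h, Ccna2 and Cdk1 are highest at 24 h, and Il24, Cxcl1, Ptgs2 and Hbegf are lower at 12 h than at 6 h.

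Among 14 CXC chemokines, which recruit neutrophils and lymphocytes, 2 fell and none rose (0.717% of all genes fell), and the median change was -0.48. Among 15 CC chemokines none was called in either direction, with a median of -0.01. Cxcl1 read 7.78, 8.75 and 8.25 at 6 h and 6.95, 7.18 and 7.46 at 12 h (change -1.06 ± 0.29, adjusted p = 0.0306), and Cxcl11 read 6.54, 6.46 and 7.55 against 5.62, 5.10 and 6.18 (change -1.22 ± 0.34, adjusted p = 0.0412). Neither gene's 6 h and 12 h arrays overlapped. Both calls were lost with several single arrays left out: Cxcl1 without replicate 2 or 3 at 6 h or replicate 1 or 2 at 12 h (adjusted p from 0.0742 to 0.145), and Cxcl11 without replicate 1 or 3 at 6 h or replicate 1 or 2 at 12 h (adjusted p from 0.0513 to 0.225). Cxcl2, a neutrophil attractant, read 7.95, 7.95 and 9.53 against 6.37, 7.09 and 7.37, without overlap, and its change of -1.54 ± 0.60 did not pass (adjusted p = 0.159). The monocyte attractant Ccl2 had overlapping groups and a change of 0.38 ± 0.47, with log2 values of 9.23 to 10.23 in all 6 arrays. Lists of neutrophil (21 genes), macrophage and monocyte (24), mast cell (13) and B lymphocyte (11) markers had no called member. Their median changes were -0.24, 0.20, -0.10 and -0.38. With 1.80% of all genes called, no call in lists of this size, CC chemokines included, says little of their members. Of 21 T lymphocyte markers, which scored high in replicate 3 at 6 h, 1 fell, the median change was -0.88 and 2 had a change above 0. That gene was Gzmb, the cytotoxic protease granzyme B, which read 8.47, 8.21 and 7.49 against 6.07, 6.35 and 6.58 (change -1.72 ± 0.42, adjusted p = 0.0192). Unlike the list score, Gzmb at 6 h was lowest in replicate 3. The Gzmb call was lost without replicate 1 or 2 at 6 h or replicate 1 at 12 h (adjusted p from 0.0610 to 0.0841).

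Of 32 cytokines 1 fell and 1 rose, with a median change of -0.29. Over all genes 1.08% rose and 0.717% fell, so 1 call each way in a list of this size says little of its members. Il24, an epithelial cytokine of the interleukin 10 family, read 7.65, 8.18 and 7.97 at 6 h and 6.57, 6.42 and 6.88 at 12 h (change -1.31 ± 0.25, adjusted p = 0.00289), and kept the call with each array left out. Il1f8, a keratinocyte cytokine of the interleukin 1 family, rose from 8.67, 8.62 and 7.84 to 9.34, 9.47 and 9.97 (change 1.22 ± 0.30, adjusted p = 0.0199), a call lost without replicate 3 of either time (adjusted p = 0.119 and 0.108). Tnf (-0.91) and Il6 (-0.75) had separate groups that did not pass (adjusted p = 0.0668 and 0.0690), and Il1b, at 8.10, 8.26 and 8.30 against 7.61, 7.86 and 8.51, overlapped. Chemokines and cytokines together gave 3 falls and 1 rise among 61 genes, and between 1 and 3 falls with single arrays left out. It was 1 without replicate 3 at 6 h, without replicate 1 at 12 h, without replicate 2 at 12 h, and without the first 2 of these together.

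A mixed list held feedback genes of NF-kappaB, a transcription factor of inflammation, and stress regulators. Of its 24 measured genes 4 fell and none rose, where 0.717% of all genes fell, and the median was -0.64. In 17 of the 24 the 12 h arrays were lower without overlap, against 10.4% of all genes. Tnfaip3, which encodes the inhibitor A20, read 9.21, 8.56 and 8.81 against 7.25, 7.78 and 7.74 (change -1.27 ± 0.24, adjusted p = 0.00225). Its partner Tnip1 fell by 1.11 ± 0.20 on the log2 scale (adjusted p = 0.00190), and by 0.96 without replicate 1 at 6 h. Ptgs2, the inducible cyclooxygenase of prostaglandin synthesis, read 10.60, 10.52 and 11.02 against 8.68, 9.60 and 8.85 (change -1.67 ± 0.37, adjusted p = 0.00804) and kept the call with each array left out, but not without replicate 3 at 6 h and replicate 1 at 12 h together (adjusted p = 0.146). Selp, the endothelial P-selectin, fell by 1.53 ± 0.44 (adjusted p = 0.0459) and lost the call without any one of the 6 arrays (adjusted p from 0.0522 to 0.188). The hyaluronan synthase Has2, a fibroblast gene in the list used here, fell by 1.73 ± 0.38 (adjusted p = 0.00768), with an adjusted p of 0.0513 without replicate 1 at 6 h. Adamts4, an aggrecan-cleaving protease, fell by 1.52 ± 0.27 (adjusted p = 0.00139) from 9.69, 9.46 and 9.65 to 7.73, 8.64 and 7.88.

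Of 24 EGF receptor ligands and ERK feedback genes 2 fell and none rose, where 0.717% of all genes fell. The median of the list was -0.46. Hbegf, an EGF receptor ligand shed by keratinocytes, stood at 10.85, 10.82 and 10.83 at 6 h and 9.44, 9.35 and 9.44 at 12 h (change -1.42 ± 0.29, adjusted p = 0.00424), 2.68-fold lower. Phlda1 fell by 1.00 ± 0.20 (adjusted p = 0.00323), and by 0.87 to 0.95 without replicate 1 or 2 at 6 h or replicate 2 at 12 h, under the fold threshold. The ERK phosphatase Dusp6 passed the adjusted p alone, at -0.97. None of 24 immediate early genes was called, where 1.80% of all genes were. Egr1 (9.07, 8.84 and 9.07 against 8.03, 8.16 and 8.04), Egr2 and Srf passed the adjusted p alone with changes of -0.92, -0.94 and -0.65, while Fos, at 5.97 to 6.37 in all 6 arrays, changed by 0.11.

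Keratinocyte activation genes were called in both directions between these times. Over all genes 1.08% rose and 0.717% fell. In 48 measured genes of stress keratins and activation markers, small proline-rich proteins and stefins, 4 rose and 4 fell (8.33% each). The comparison is therefore called here by its times and not by a passage to activation. For most of these genes the test was not passed, which does not show that their levels were equal. The 4 rises became 2 without replicate 3 at 6 h, 2 in a fit of all 66 arrays, and 0 without replicate 3 at 6 h and replicate 1 at 12 h together. The stress keratins were already high at 6 h and did not pass. Krt6b read 12.11, 12.19 and 11.84 at 6 h and 12.54, 12.39 and 12.39 at 12 h, a change of 0.39 ± 0.61, beside 7.61 ± 0.07 (SD, n = 3) in untreated skin. Krt16 and Krt17 changed by 0.46 ± 0.49 and 0.39 ± 0.27. The falling genes were Itgb6, an integrin chain of activated epithelium (10.22, 10.04 and 9.67 against 8.10, 8.69 and 8.39, change -1.58 ± 0.22, adjusted p = 0.000144), Serpinb2, a protease inhibitor (-1.27 ± 0.24, adjusted p = 0.00216), Odc1, the first enzyme of polyamine synthesis, and Hspb1, a small heat shock protein. Odc1 read 10.49, 10.40 and 10.20 against 9.14, 9.16 and 9.30 (change -1.16 ± 0.24, adjusted p = 0.00564). Hspb1 fell by 1.10 (adjusted p = 0.0183) and lost the call without replicate 1 at 6 h or replicate 1 or 3 at 12 h (adjusted p from 0.0573 to 0.118). The calprotectin genes S100a8 and S100a9 overlapped, at 1.29 ± 0.79 and 0.89 ± 0.67.

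Among 14 small proline-rich proteins, precursors of the cornified envelope, 2 rose and none fell, where 1.08% of all genes rose. Their changes ran from -0.56 to 1.45 with a median of 0.16. Sprr2a1 read 9.27, 9.10 and 8.76 at 6 h and 10.10, 10.34 and 10.23 at 12 h (change 1.18 ± 0.25, adjusted p = 0.00542). Sprr4 rose by 1.45 ± 0.37 (adjusted p = 0.0244), a call lost without replicate 3 at 6 h or replicate 2 or 3 at 12 h (adjusted p from 0.0823 to 0.135). Of 9 stefins, cysteine protease inhibitors, Csta1 rose (5.99, 6.45 and 5.99 against 7.58, 6.79 and 8.28, change 1.41 ± 0.28, adjusted p = 0.00384), and the list ran from 0.08 to 1.52 with a median of 0.70. Sprr2 and stefin genes are near-identical copies whose probes may share signal, so single members are uncertain. Tgm5, a transglutaminase that crosslinks the envelope, rose by 1.42 ± 0.33 (adjusted p = 0.0137). Its call was lost without replicate 3 at 6 h, the lowest array at 7.45 (adjusted p = 0.102).

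Of 33 suprabasal and cornified envelope genes 5 fell and 1 rose, where 0.717% of all genes fell and 1.08% rose. The median of the list was -0.32. Krt10, the main suprabasal keratin, read 12.08, 12.01 and 11.48 at 6 h and 10.36, 10.70 and 9.52 at 12 h (change -1.66 ± 0.23, adjusted p = 0.000134), and was 2.39 under untreated skin at 12 h (adjusted p = 1.34e-07). Lor, loricrin of the cornified envelope, fell by 1.33 ± 0.27 (adjusted p = 0.00449), Aloxe3, an epidermal lipoxygenase, by 1.50 ± 0.26 (adjusted p = 0.00114), and Mt4, a metallothionein of stratified epithelium, by 1.77 ± 0.38 (adjusted p = 0.00738). Krt1, the partner of Krt10, overlapped, with a change of -0.38 ± 0.30. Casp14, the caspase of cornification, went the other way, from 8.63, 8.64 and 7.75 to 9.71, 9.73 and 9.76 (change 1.40 ± 0.28, adjusted p = 0.00464). Without replicate 3 at 6 h and replicate 1 at 12 h together Casp14 and Mt4 lost the call (adjusted p = 0.0924 and 0.115), and Krt10, Lor and Aloxe3 did not. Basal keratinocyte genes had a median of -0.52 over 17 genes with 1 call, a fall of the Notch ligand Dll1 by 1.10 (adjusted p = 0.0268). It was lost without replicate 1 or 2 at 6 h or replicate 1 or 3 at 12 h (adjusted p from 0.0709 to 0.154).

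**Figure D4:**
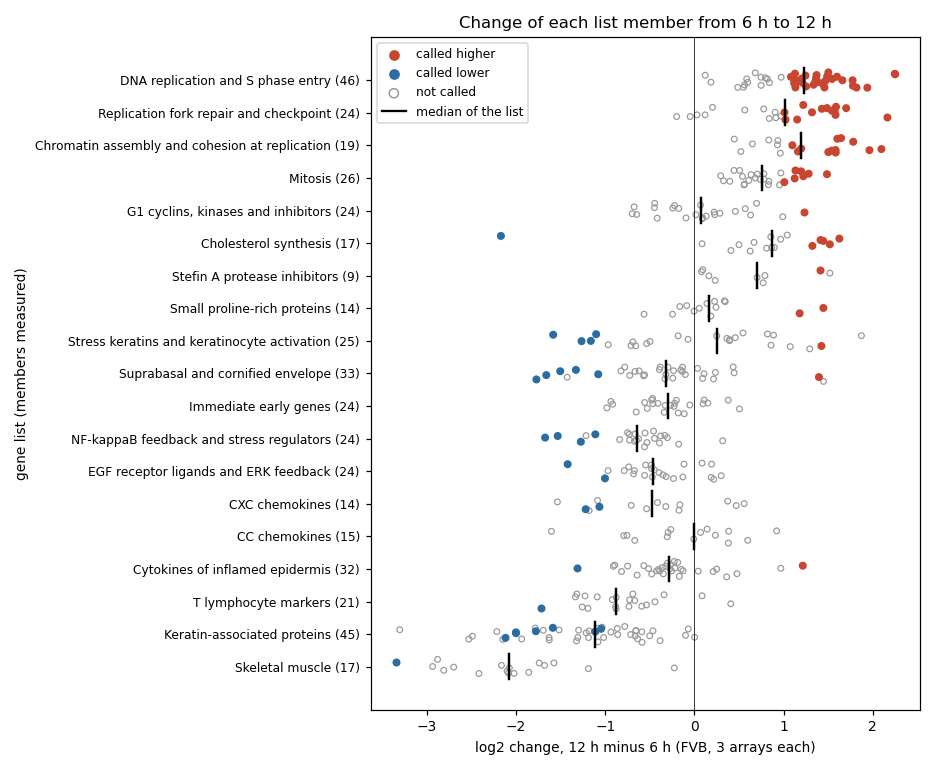
Log2 change from 6 h to 12 h (horizontal axis, 3 FVB arrays each) of every measured member of 19 gene lists (vertical axis, number measured in brackets), with called genes filled in red or blue, other genes open, and the list median as a bar. The replication lists lie to the right with medians of 1.23, 1.02 and 1.20, the signal lists have medians at or left of 0, the stress keratin, small proline-rich and suprabasal lists have members on both sides of 0, and all 9 stefins lie above 0. The fork repair (1.02), chromatin assembly (1.20) and keratin-associated lists were drawn up after the values were seen.

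The 12 largest rises and 12 largest falls were taken among called genes whose 6 h and 12 h arrays did not overlap, leaving out provisional names such as Gm, Rik and LOC symbols. The rises held genes of several kinds. Slc16a14, a monocarboxylate transporter family member, read 4.81, 5.71 and 5.09 at 6 h and 8.11, 7.87 and 8.18 at 12 h, a 7.21-fold difference (change 2.85 ± 0.34, adjusted p = 2.45e-05). Its untreated mean was 9.21 ± 0.34 (SD, n = 3), so the 12 h arrays lay 1.16 under untreated skin. Oas1f and Fads2b showed the same order of means, with 12 h minus 6 h changes of 2.15 and 2.01 and untreated means above both times. Igfl3, an insulin growth factor-like family member, differed: it read 4.79, 4.66 and 4.53 at 6 h, near its untreated mean of 4.74 ± 0.18 (SD, n = 3), and 7.22, 7.11 and 7.65 at 12 h (change 2.67 ± 0.27, adjusted p = 5.25e-06). Klk13, a kallikrein protease, was already 2.42 over untreated skin at 6 h and rose further, from 7.65, 8.06 and 7.54 to 9.85, 9.56 and 9.79 (change 1.99 ± 0.36, adjusted p = 0.00173). All 12 of these rises, which also hold Scd2 and 6 replication genes named here (Pole, Mcm6, Dtl, Asf1b, Hells and E2f1), kept the call with each array left out.

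Of the 12 falls chosen in that way 4 kept the call with each array left out: Slc26a4, Ch25h, Slc39a10 and Xirp1. Slc26a4, the anion exchanger pendrin, read 6.71, 7.79 and 7.66 at 6 h and 5.34, 4.50 and 4.97 at 12 h, a 5.47-fold difference (change -2.45 ± 0.28, adjusted p = 1.63e-05), beside 3.69 ± 0.14 (SD, n = 3) in untreated skin. Slc39a10, a zinc importer, was tight at 9.55, 9.59 and 9.40 against 7.26, 7.38 and 7.56 (change -2.11 ± 0.18, adjusted p = 6.88e-07). Ch25h, which makes 25-hydroxycholesterol, fell by 2.17 ± 0.41 (adjusted p = 0.00233). Xirp1, an actin-binding protein of striated muscle, fell by 2.31 ± 0.40 (adjusted p = 0.00125), and Flnc, a muscle filamin, fell by 2.08 ± 0.46 (adjusted p = 0.00813), with an adjusted p of 0.0580 for Flnc without replicate 3 at 12 h. Myh1, a fast muscle myosin, had the largest fall at 7.77, 8.65 and 8.32 against 5.79, 5.78 and 3.12 (change -3.35 ± 0.95, adjusted p = 0.0416), and lost the call with any array but replicate 2 at 12 h left out (adjusted p from 0.0539 to 0.217). Fmo2, a flavin monooxygenase, fell by 2.34 ± 0.61 (adjusted p = 0.0256), a call lost without replicate 1 at 6 h or replicate 3 at 12 h (adjusted p = 0.110 and 0.180). Pdk4, a kinase that inhibits pyruvate dehydrogenase, fell by 2.07, and lost the call without replicate 3 at 6 h or replicate 1 or 3 at 12 h (adjusted p from 0.0662 to 0.149). Lrrc2 fell by 1.97, and lost the call without replicate 2 or 3 at 6 h or replicate 1 or 3 at 12 h (adjusted p from 0.0728 to 0.110). The hair keratin Krt84 fell by 2.22, and lost the call without replicate 2 or 3 at 6 h or replicate 3 at 12 h (adjusted p from 0.0976 to 0.156). The remaining falls, the hair shaft genes Krtap6-5 and Krtap6-2, both fell by 2.00. The muscle list as a whole had scores of 1.09 to 1.47 at 6 h and -2.42 to 0.26 at 12 h, and its part in these falls was not tested.

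The same times were measured in F1 skin on separate arrays, 2 at each time, 1 from each of 2 batches. There 167 genes were higher (0.887%) and 153 lower (0.813%) at 12 h. Of the 204 genes higher in FVB 200 had an F1 change above 0, and 104 were called higher, which is 51.0% of the FVB genes and 62.3% of the F1 genes. Of the 135 lower genes 128 had an F1 change below 0, and 42 were called lower, which is 31.1% of the FVB genes and 27.5% of the F1 genes. All 46 replication genes were above 0 in F1 with 29 called and a median of 1.24, and in each batch alone all 46 were higher at 12 h, with medians of 1.04 and 1.50. Mcm6 changed by 1.76 ± 0.37 in F1 (adjusted p = 0.00333) and Pole by 1.73 ± 0.31 (adjusted p = 0.000770). Krt10 changed by -0.10 ± 0.54 in F1, and its FVB minus F1 difference of -1.56 ± 0.70 did not pass (adjusted p = 1.00). The total of 320 F1 calls fell to 17 without replicate 2 at 6 h, and was 129 and 76 without replicate 1 or 2 at 12 h.

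No gene passed the test of the difference between the FVB and F1 changes in limma (0.0%), and 459 genes had an unadjusted p under 0.05. Over the 46 replication genes the FVB change minus the F1 change ran from -0.97 to 0.76, with a median of 0.01 and a median standard error of 0.37. Over the 26 mitosis genes the median difference was -0.47, with a median standard error of 0.40, and F1 called 16 of them where FVB called 7. Over the 15 CC chemokines all differences were above 0, with a median of 1.02 and a median standard error of 0.86, and 5 had an unadjusted p under 0.05. The median CC chemokine change was -1.20 in F1 and -0.01 in FVB, and Ccl2 changed by -1.49 ± 0.55 in F1 without passing (adjusted p = 0.194).

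**Figure D5:**
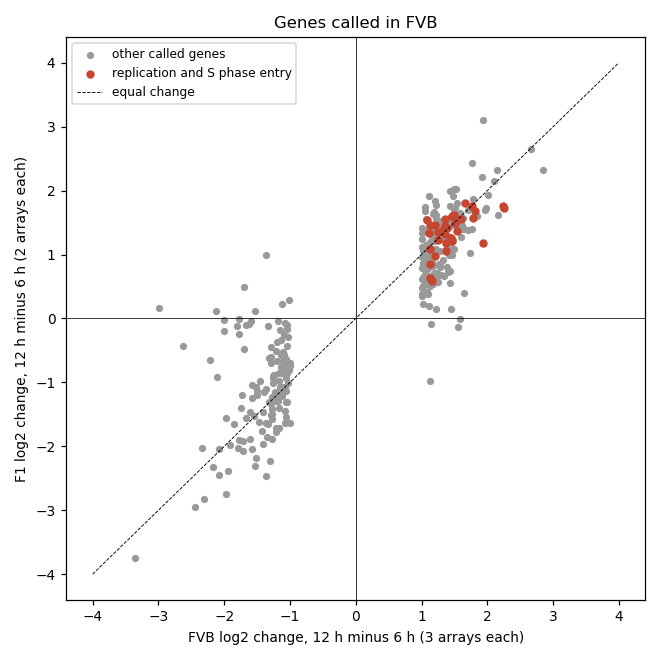
Log2 change from 6 h to 12 h in FVB (horizontal axis, 3 arrays each) against F1 (vertical axis, 2 arrays each) for the 339 genes called in FVB, replication genes in red, with equal change as a dashed line. The FVB genes were chosen on the horizontal values. Of the 204 genes on the right 200 lie above 0 in F1, and of the 135 on the left 128 lie below.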

How the data were processed

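RNA of mouse dorsal skin was measured on 69 microarrays, of which 66 have a group in the labels. The deposited values are log2 expression, made by the authors with RMA (version not given) per the submitters' processing notes; the sources used here do not say whether batches were adjusted first. The value table holds 35556 probe sets: 21218 carry 1 gene symbol, 1881 several and 12457 none in the platform annotation, whose genome build is not named. Each of 18820 genes is represented by its probe set of highest mean. Arrays give no read depth, and precision is limited by their number.

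The change from 6 h to 12 h was fitted by lmFit and eBayes of limma 3.58.1 (R 4.3.3) over the 27 FVB arrays with 1 mean per time, which gives 18 residual degrees of freedom. Calls need a Benjamini-Hochberg adjusted p under 0.05 over all genes, two-sided, and an absolute log2 change of at least 1. The F1 change and the difference between strains come from 66 arrays with a batch term (38 residual degrees of freedom). A value after ± is the fit's standard error unless SD is written. The other strains were left out of the FVB fit because they lie in other batches and 2 of their arrays have a narrow range. An exact permutation test of 3 arrays against 3 cannot give a p below 0.1, so none is reported.

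Genes to name were drawn from the 12 largest rises and 12 largest falls among called genes without overlap between the groups (provisional symbols left out), up to 6 called members of each gene list, and members that define a list's role. Not every gene this gives is named. The arrays and 47 gene lists were chosen with earlier results of these data known, and 4 more lists were added after the values were seen. These 4 were fork repair and checkpoint, chromatin assembly and cohesion, hair shaft keratins, and keratin-associated proteins. The fit was tested on simulated data. Alternatives were other centring and normalization, the probe set rule, a filter on dim genes, other array sets, a replicate block and leaving out arrays. Replicate numbers do not pair the arrays: deviations of same-numbered arrays from their group means correlated at -0.205, -0.229 and 0.024.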

Additional observations from a re-analysis of the deposited data

How the results depend on the processing

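With the fold threshold dropped, 497 genes were higher and 382 lower. Under centring on the array median, cyclic loess, a trended and robust eBayes, a filter on dim genes and all probe sets, higher genes numbered 171 to 223 and lower genes 129 to 163. Centring on the median moved the split, to 171 higher and 163 lower. The 6 arrays alone gave 95 higher and 40 lower, with 1 keratinocyte activation gene higher and 26 replication genes. All 66 arrays gave 174 higher, 104 lower and 2 keratinocyte activation genes. With single arrays left out, higher genes ran from 185 to 227, lower genes from 76 to 157, replication genes from 30 to 33, falling chemokines and cytokines from 1 to 3 and rising keratinocyte activation genes from 2 to 5. Without replicate 3 at 6 h and replicate 1 at 12 h together there were 161 higher and 89 lower genes, 28 replication genes, 1 falling cytokine and 0 rising keratinocyte activation genes. F1 calls numbered 320, 326 without a batch term, 17 to 252 with 1 array left out, and 515 without the 2 arrays of narrow range, a setting chosen after seeing the data. The strain difference had 0 calls in each fit, with 1054 genes at an unadjusted p under 0.05 in the last. The cause of these shifts was not tested, beyond the smaller number of arrays in some fits.

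With the replicate number as a block, 206 genes were higher and 134 lower, with 31 replication genes, 3 falling chemokines and cytokines and 4 rising keratinocyte activation genes. The pairing lost 2 of 96 named calls, Krtap6-1 and Selp. No named call changed direction in any setting, and 39 of the 96 kept the call with the 6 arrays alone. List counts were not recomputed over all probe sets. Precision is limited by 3 arrays a time and 2 a time in F1.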

Other observations

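Lipid synthesis genes moved both ways between 6 h and 12 h. Of 17 measured genes of cholesterol synthesis and its control 5 rose and 1 fell, where 1.08% of all genes rose and 0.717% fell. The list's median log2 change was 0.87. In 12 members the 12 h arrays all lay above the 6 h arrays, as they did in 12.0% of all genes. Hmgcs1, which makes HMG-CoA, read 9.48, 9.74 and 8.40 at 6 h and 11.34, 10.96 and 10.20 at 12 h (change 1.62 ± 0.33, limma adjusted p = 0.00500). Stard4, a sterol carrier, rose by 1.52 ± 0.23 (adjusted p = 0.000363) and Insig1, a sensor of sterols, by 1.41 ± 0.27 (adjusted p = 0.00263). Sc5d, a late enzyme of the pathway, rose by 1.32. Sqle, squalene epoxidase, rose by 1.44 ± 0.35 (adjusted p = 0.0184), a call lost without replicate 3 at 6 h or replicate 1 or 2 at 12 h (adjusted p from 0.0720 to 0.117). Replicate 3 at 6 h had the lowest score of the list, at -0.87 beside -0.12 and -0.04, and the 12 h arrays scored 0.66, 0.49 and 0.09. Without replicate 3 at 6 h and replicate 1 at 12 h together Stard4 kept the call (adjusted p = 0.0227), and Hmgcs1, Insig1, Sc5d and Sqle lost it (adjusted p = 0.178, 0.129, 0.180 and 0.261). The member that fell was Ch25h. In F1 the list's median change was 0.95. Scd2, a fatty acid desaturase, rose by 1.94 ± 0.38 (adjusted p = 0.00308), while its sebaceous relative Scd3 read 10.98, 10.89 and 10.47 against 8.56, 9.35 and 9.19 (change -1.75 ± 0.31, adjusted p = 0.00133).

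Some markers of resident cells and structures were lower. Among 19 Langerhans and dendritic cell markers the median change was -0.16, and 8 had a change above 0. Cd207, langerin of Langerhans cells, read 9.84, 9.72 and 8.82 at 6 h and 7.70, 7.66 and 8.30 at 12 h (change -1.58 ± 0.34, adjusted p = 0.00799). It was the 1 called gene of 19 Langerhans and dendritic cell markers, where 1.8% of all genes were called. The list of keratin-associated proteins of the hair shaft was drawn up after the values were seen and serves as a description. Among its 45 genes 7 fell, where 0.717% of all genes fell, and the median was -1.11. In 28 the 12 h arrays lay wholly below the 6 h arrays, as in 10.4% of all genes. Of the 7 calls 1, Krtap13 (-1.59 ± 0.31, adjusted p = 0.00297), was kept with each array left out. Krtap3-2 changed by -0.88 without replicate 3 at 12 h. Krtap3-1, Krtap3-3, Krtap6-1, Krtap6-2 and Krtap6-5 lost the call without replicate 2 or 3 at 6 h or replicate 3 at 12 h (adjusted p from 0.0887 to 0.236), and all but Krtap6-2 also without replicate 1 at 12 h (adjusted p from 0.0506 to 0.151). Krtap6-1 lost it without replicate 2 at 12 h as well (adjusted p = 0.0531). In the fit of all 66 arrays Krtap3-2, Krtap3-3, Krtap6-1, Krtap6-2 and Krtap6-5 were not called. Members of the same subfamily, such as the Krtap6 genes, may be close copies whose probes share signal, which was not checked. The scores of the 45 genes were -0.49, 0.55 and 0.95 at 6 h and -0.92, -0.70 and -1.10 at 12 h. Replicate 1 at 6 h thus lay nearer the 12 h arrays, and the F1 median of the 45 was 0.00. Of 15 clock genes Cry1 (-1.27 ± 0.23, adjusted p = 0.00151) and Per2 (-1.21 ± 0.21, adjusted p = 0.00137) fell, where 0.717% of all genes fell. Both were also called lower in F1, and the time of day of sampling is not in the labels.

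Of 20 measured antimicrobial and acute phase genes 1 rose and 1 fell, and the median change was 0.03. Over all genes 1.08% rose and 0.717% fell. Defb1, a constitutive beta-defensin, fell by 1.32 ± 0.25 (adjusted p = 0.00228), and by 0.98 without replicate 1 at 12 h. Defb4, an inducible beta-defensin, rose by 1.64 ± 0.46 (adjusted p = 0.0393), a call lost without replicate 1 or 2 at 6 h or replicate 1 or 3 at 12 h (adjusted p from 0.0680 to 0.203). Of 26 interferon response genes Usp18 and Isg20 fell, by 1.25 and 1.16, and without replicate 3 at 6 h their changes were -0.70 and -0.68 (adjusted p = 0.274 and 0.191). Lists of endothelial, adipocyte, melanocyte, ribosome biogenesis, proteasome, glycolysis, NRF2 and p53 genes had no called member, where 1.80% of all genes were called. With that share, no call in lists of this size says little of their members. The adjusted p alone was passed by 2 proteasome genes and 1 NRF2 gene.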
